A study of Capra hircus with 3 samples.

Results

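The genes described here are those of the cell division cycle, of DNA replication and of the histones, as far as the description of an array probe names them. A probe was taken when its description held one of 14 words or phrases, such as cyclin, mitotic, DNA polymerase, centromere, kinesin, aurora or histone H. The rule took in 29 of the 15008 probes that are not controls, which stand for 26 of 14363 sheep records. By the same words, 5 probes belong to replication, 10 to mitosis with centromere, kinesin and aurora, 11 to cyclins with their kinases, and 3 to histones. Cyclin B1 answers to both cyclin and mitotic and was counted with mitosis.

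Skin RNA came from 6 female goats of the Arbas Cashmere breed, each 2 years old. In the short photoperiod group, 3 goats were outdoors from 9:30 to 16:30 and spent the rest of the day in a dark shed at about 0.1 lux, which was 1 degree cooler than outside. The other 3 goats grazed under the natural photoperiod, which the array titles call long. The paper states that each short photoperiod goat was compared with a natural photoperiod goat of the same parent. It does not say which goats shared an array. Each of 3 two-colour Agilent sheep arrays carried 1 short photoperiod goat in Cy5 and 1 natural photoperiod goat in Cy3. A positive log2 ratio marks more signal from the short photoperiod goat. The dyes kept this orientation on all 3 arrays, so a bias of a probe towards one dye cannot be told apart from a difference between the groups. The RNA was that of whole skin, in which fewer cells of a type and less RNA per cell cannot be told apart.

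In a growing hair follicle, the matrix cells around the dermal papilla divide quickly and supply the hair shaft and the inner root sheath. Cells that enter S phase make thymidylate and replicate their DNA with PCNA, the sliding clamp of the DNA polymerases. Cyclin A2, cyclin B1 and their kinase CDK1 then drive the cell into mitosis, which aurora kinase A helps to organise. Whether the skin under the short photoperiod held more mRNA of this machinery is the question put to the arrays.

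The probes are DNA strands of 60 bases that were designed on sheep records and hybridised with goat RNA. The files give them no genome position. Of the symbols that the array gives the members, 8 are also gene symbols in the RefSeq table of the goat. PCNA is shown first because its 2 probes overlap and therefore count as 1 measurement of the gene, with the 30 shared bases in capitals.
PCNA, probe A_70_P026207: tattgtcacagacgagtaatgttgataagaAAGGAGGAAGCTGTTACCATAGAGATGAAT
PCNA, probe A_70_P026206: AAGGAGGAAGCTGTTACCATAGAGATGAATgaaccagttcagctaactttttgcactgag
The probes of thymidylate synthetase, cyclin A2 and CDK1 follow because their ratios were the ones that stood highest on replicate 3, together with that of cyclin B1.
Thymidylate synthetase, probe A_70_P070554: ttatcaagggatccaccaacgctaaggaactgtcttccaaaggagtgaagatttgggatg
Cyclin A2, probe A_70_P034351: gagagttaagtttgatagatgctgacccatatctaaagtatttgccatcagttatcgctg
CDK1, probe A_70_P047446: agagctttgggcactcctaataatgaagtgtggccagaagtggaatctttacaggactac
Each of these 5 strands has at least 1 forward reading frame without a stop codon, as 27 of the 29 member probes have.

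Across the 29 probes, 0 were called different between the groups. The lowest adjusted p was 0.172, from limma with Benjamini-Hochberg adjustment over 14977 tested probes, of which 0.00668% were called. An unadjusted p under 0.05 was found for 2 members, thymidylate synthetase and histone H2AV, which is 6.90% of them against 18.5% of all tested probes. Both were higher, as 9.05% of all tested probes were at that p, and 0 members were lower, where 9.41% of all tested probes were. A mean change of at least 2-fold was shown by 0 members and by 0.855% of all tested probes. At 1.5-fold there were also 0 members, against 5.86% of all tested probes, of which 2.69% lay on the higher and 3.16% on the lower side. The means ran from -0.32 to 0.58 on the log2 scale, and for 18 of the 29 probes the mean was smaller than its own SD. The median size of the change without regard to sign was 0.16 among the members and 0.16 among all tested probes.

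The members leaned to the higher side in number but not in size. Their mean was above 0 for 21 of 29 probes, or 72.4%, against 48.8% of all tested probes, and their median was 0.12 against -0.01. Of the 28 members with a value on every array, 9 were higher on all 3 arrays, where 21.5% of all probes were. By contrast, 3 were lower on all 3 arrays, where 22.1% of all probes were. The 12 with a single direction make up 42.9% of the members, and 43.6% of all probes had one. The median ratio of the members was 0.01, 0.15 and 0.15 on replicates 1, 2 and 3. By group, 10 of 11 means were above 0 among the cyclins, 3 of 3 among the histones, 6 of 10 in mitosis and 2 of 5 in replication, where both PCNA probes are among those below 0.

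**Figure D1:**
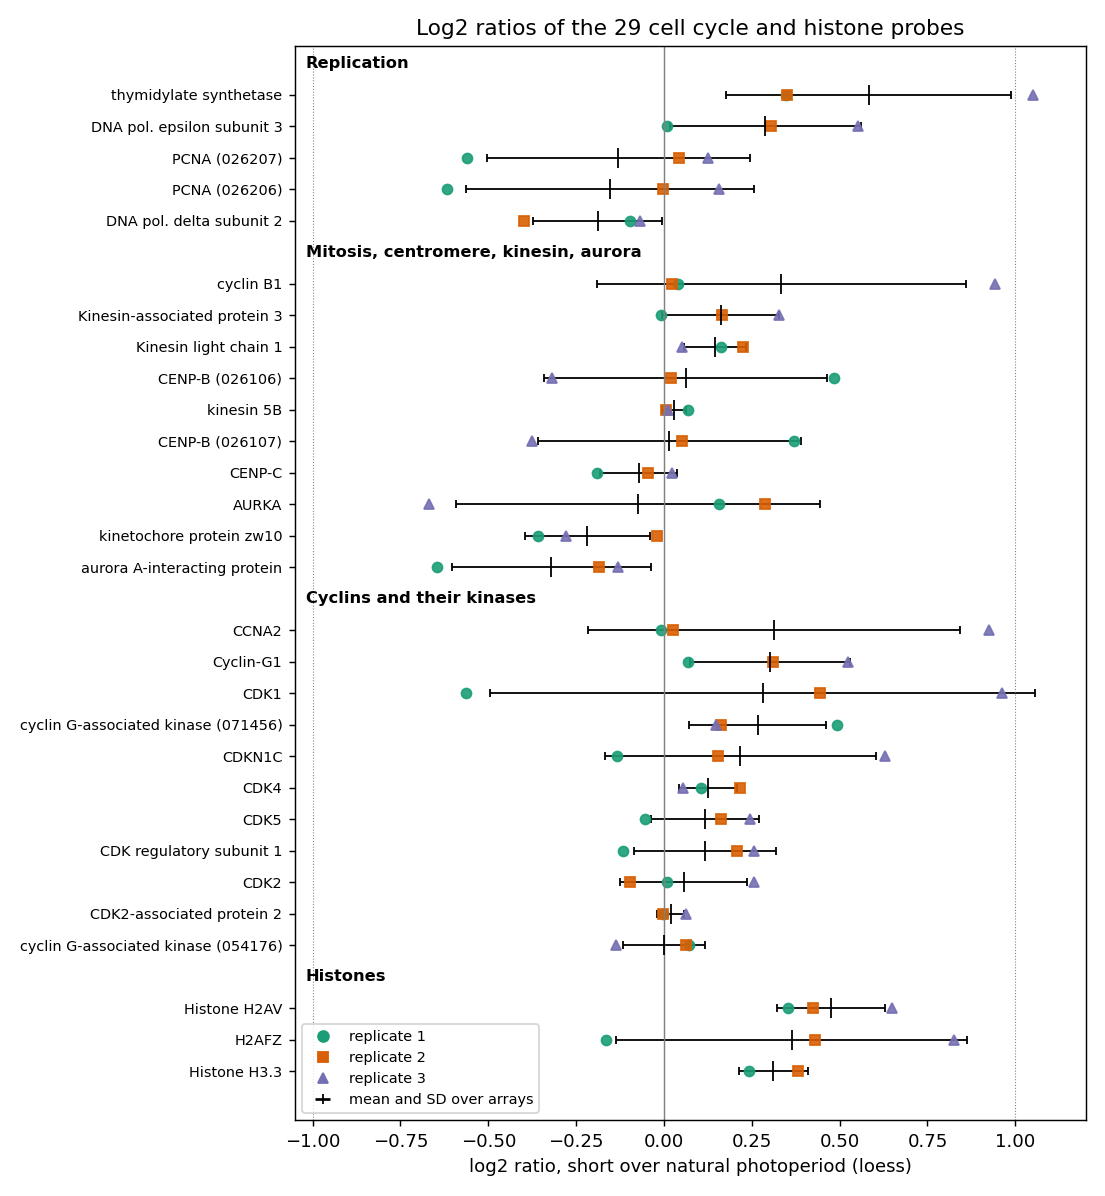
Log2 ratio of short over natural photoperiod (horizontal axis) of each of the 29 probes on replicates 1, 2 and 3, with the mean and SD over the arrays as a bar and a 2-fold change as dotted lines. Replicate 3 lies far to the right for thymidylate synthetase, cyclin B1, cyclin A2 and CDK1, at 0.93 to 1.05, and far to the left for AURKA, at -0.67; replicates 1 and 2 coincide for thymidylate synthetase.

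In the replication group, thymidylate synthetase (LOC100037674, DQ239635), which makes the thymidylate that only DNA needs, had the highest mean of all members. Its log2 level was 12.57, 13.35 and 13.56 in the short photoperiod goats of replicates 1, 2 and 3, and 12.23, 12.996 and 12.51 in their natural photoperiod partners. Every short photoperiod goat stood above its own partner, while the ranges of the groups overlapped. The log2 ratios were 0.35, 0.35 and 1.05, and their mean was 0.58 ± 0.40 (SD, n = 3), just under 1.5-fold (limma, adjusted p = 0.216). Without replicate 3 the mean was 0.35.

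PCNA (AF416380) did not share this direction. The first probe had log2 ratios of -0.56, 0.04 and 0.13, and the second, which shares its bases, -0.62, 0.00 and 0.16. The overlapping probes thus gave the same picture, a lower level in the short photoperiod goat of replicate 1 and little difference in the other pairs. Their means of -0.13 ± 0.37 and -0.15 ± 0.41 (SD, n = 3) lay well inside the spread, and limma gave adjusted p-values of 0.698 and 0.667. Without replicate 1 they were 0.08 and 0.08, so the sign rests on that pair.

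The other replication members are subunits of the replicative polymerases. DNA polymerase epsilon subunit 3 (TC57282) was higher on each array, by 0.01, 0.30 and 0.55 on the log2 scale. DNA polymerase delta subunit 2 (TC76614) was lower on each array, with -0.10, -0.40 and -0.07. Neither mean, 0.29 ± 0.27 and -0.19 ± 0.18 (SD, n = 3), was called, with adjusted p-values of 0.335 and 0.430. The replication median of -0.13 is the mean of the first PCNA probe, and PCNA gives 2 of the 5 values. With the brightest probe of each record the median was 0.067, without replicate 1 it was 0.084, and after median centring in place of loess it was 0.38, so the replication group has no settled sign.

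Among the cyclins and their kinases, cyclin A2 (EU525164), the cyclin of S phase and of entry into mitosis, was measured at log2 levels of 13.62, 13.88 and 14.09 in the short and 13.63, 13.86 and 13.16 in the natural photoperiod goats. The first and second pairs were level, and the third differed by 0.93. Cyclin B1 (TC52744), which activates CDK1 for mitosis, showed the same pattern at levels of 14.22, 14.11 and 14.18 against 14.19, 14.09 and 13.24. For both genes the natural photoperiod goat of replicate 3 had the lowest level of the 6 goats, and for cyclin B1 it was the only goat that stood apart. The means were 0.31 ± 0.53 and 0.33 ± 0.53 (SD, n = 3), at adjusted p-values of 0.476 and 0.449 in limma. Without replicate 3 they were 0.01 and 0.03.

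CDK1 (NM_001142508), the kinase that both cyclins activate, gave a log2 ratio of nearly the same size on replicate 3, 0.96, but by another goat. Its level was 11.92, 12.06 and 11.93 in the natural photoperiod goats, a range of 0.13. In the short photoperiod goats it was 11.36, 12.50 and 12.89, a range of 1.53. The short photoperiod goat of replicate 1 was thus the lowest and that of replicate 3 the highest of all. The mean ratio was 0.28 ± 0.78 (SD, n = 3), the widest spread of any member, and -0.06 without replicate 3.

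Aurora kinase A (AURKA, NM_001142507), a mitotic kinase of the spindle poles, went the other way in the same animals. Its log2 level was 12.45, 12.06 and 12.19 under the short and 12.29, 11.77 and 12.86 under the natural photoperiod. The natural photoperiod goat of replicate 3, which was lowest for both cyclins, was the highest for AURKA. The ratios of 0.16, 0.29 and -0.67 gave a mean of -0.07 ± 0.52 (SD, n = 3), which was 0.22 without replicate 3. On that array 9 of 28 members had a ratio above 0.5 and 1 had a ratio below -0.5, whereas 0 members exceeded 0.5 on replicate 1 and 0 on replicate 2. Among all probes 6.99%, 5.53% and 9.52% exceeded 0.5 on replicates 1, 2 and 3. Below -0.5 on replicate 1 were 4 members, CDK1, both PCNA probes and the aurora kinase A-interacting protein.

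**Figure D2:**
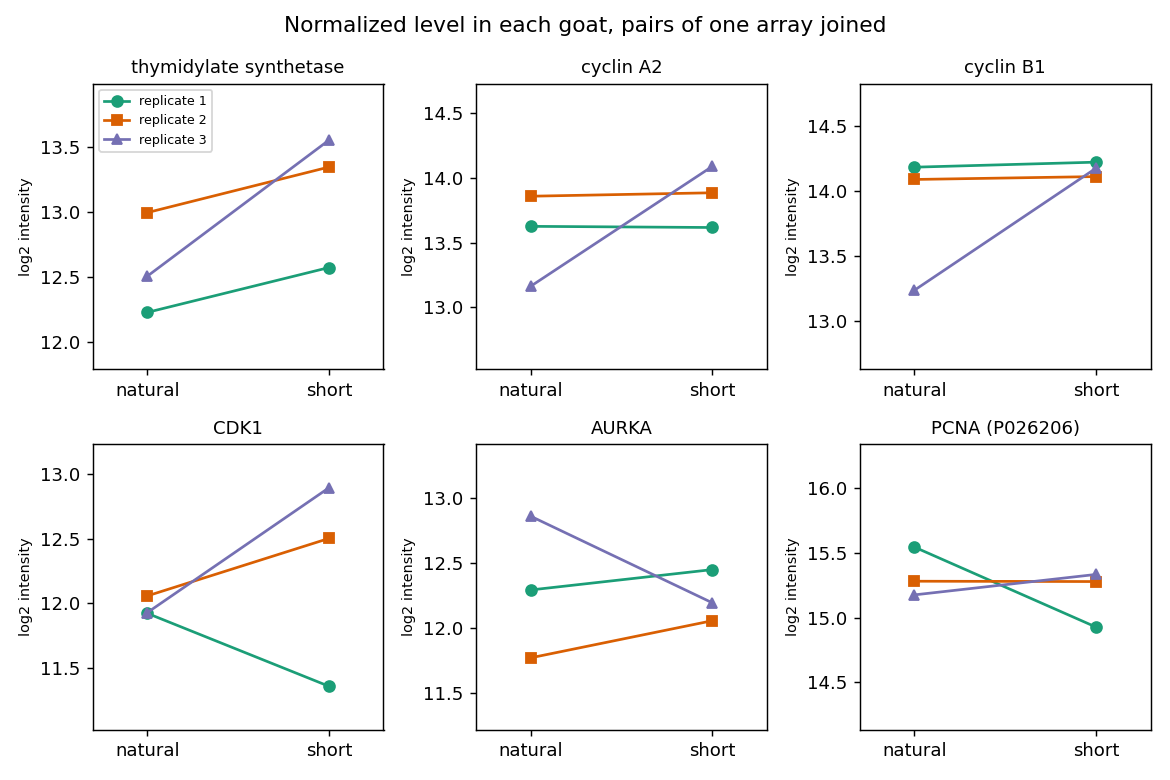
Normalized log2 intensity (vertical axis, the same span in each panel) of 6 members in each goat, with the natural and the short photoperiod goat of one array joined by a line. The line of replicate 3 rises for thymidylate synthetase, cyclin A2, cyclin B1 and CDK1 and falls for AURKA, from 12.86 to 12.19, and the line of replicate 1 falls for CDK1 and PCNA.

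The kinases of the G1 phase differed little. CDK4 (NM_001127269), the partner of the D-type cyclins, had log2 ratios of 0.11, 0.22 and 0.05 and a mean of 0.13 ± 0.08 (SD, n = 3). The 95% confidence interval of limma for this mean after loess, -0.13 to 0.38, lay inside a change of 2-fold in either direction. CDK2 (NM_001142509), which acts with cyclins E and A, had ratios of 0.01, -0.10 and 0.26 and an interval of -0.24 to 0.35. The regulatory subunit 1 of the cyclin-dependent kinases (TC60555), a small protein bound to CDK1 and CDK2, had a mean of 0.12 ± 0.20 with an interval of -0.19 to 0.42. By contrast, the intervals of CDK1, -0.50 to 1.06, and of thymidylate synthetase, 0.13 to 1.04, do not exclude a 2-fold increase. These intervals are not adjusted for the number of probes. They cover the spread between arrays after loess, and neither a dye bias of a probe nor the choice of normalization. After median centring the mean of CDK4 was 0.41, outside its interval.

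The kinase inhibitor CDKN1C (p57, NM_001142510), which holds cells out of the cycle, was not on the opposite side to the cyclins. Its log2 ratios were -0.13, 0.15 and 0.63, so that it too was highest on replicate 3. The difference of that pair lay in the natural photoperiod goat, at a level of 13.78 against 14.74 and 14.22 in its group. The mean of 0.22 ± 0.39 (SD, n = 3) was not called (limma, adjusted p = 0.529), and without replicate 3 it was 0.010. Cyclin G1 (TC54336), which is not a cyclin of the cycle engine, was higher on each array by 0.07, 0.31 and 0.52, with a mean of 0.30 ± 0.23 and an adjusted p of 0.294.

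CDK5 and the cyclin G associated kinase were taken in by a word of their name and are best known outside the cycle. CDK5 (NM_001135931), a kinase best known from neurons, averaged 0.12 ± 0.15 (SD, n = 3) on the log2 scale. The cyclin G associated kinase (TC62685), which takes part in clathrin uncoating, is read by 2 probes that did not give the same value. The bright one had 0.49, 0.16 and 0.15, and its 3 short photoperiod goats, at 14.70 to 15.001, lay above the 3 natural ones, at 14.51 to 14.68. Such a separation was shown by 6.69% of all tested probes with the short photoperiod higher, and by 3 members, this probe and histones H2AV and H3.3, the last on 2 arrays. The dim one, well above background in Cy5 on 2 arrays and in Cy3 on 3, had a mean of 0.00 ± 0.12. The CDK2-associated protein 2 (TC61543) was level, at 0.02 ± 0.04.

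The centromere proteins gave no common direction. CENP-B (U35655), which binds the repeats of the centromere, was read by 2 probes at 0.48, 0.02 and -0.32 and at 0.37, 0.05 and -0.38 on the log2 scale. Both probes placed replicate 1 above and replicate 3 below 0, so their means of 0.06 ± 0.40 and 0.02 ± 0.37 (SD, n = 3) hide opposite pairs. CENP-C (U35657), a part of the inner kinetochore, had -0.07 ± 0.11. The kinetochore protein zw10 (TC62509), which serves the mitotic checkpoint, was lower on each array, with a mean of -0.22 ± 0.18 (limma, adjusted p = 0.368).

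The aurora kinase A-interacting protein (TC61339), taken in by the word aurora in its name, had the lowest mean of the members, and was not called. Its log2 level was 15.18, 15.29 and 15.46 in the short and 15.83, 15.47 and 15.59 in the natural photoperiod goats. All 3 short photoperiod goats lay below all 3 natural ones, as 1 of the 29 members and 7.26% of all tested probes did in this direction. The ratios of -0.64, -0.18 and -0.13 had a mean of -0.32 ± 0.28 (SD, n = 3) and an adjusted p of 0.307. This probe was brighter than 97.0% of all probes, and with each array centred on its median in place of loess its mean was 0.37, so its direction depends on the normalization.

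The kinesins on the array are those of cargo transport and not of the spindle. Kinesin family member 5B (DQ239657), the motor of kinesin 1, was level at 0.03 ± 0.03 (SD, n = 3) on the log2 scale, one of the smallest spreads among the members. Its light chain 1 (TC56631) had 0.15 ± 0.09 and was higher on each array. The kinesin-associated protein 3 (TC58061), an adaptor of kinesin 2, had 0.16 ± 0.17.

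The 3 histone probes stood higher than the other groups. All are replacement variants, histone H2A.Z (H2AFZ, NM_001009270), histone H2AV (TC80730) and histone H3.3 (TC78500), which cells make throughout the cycle from mRNAs with a poly(A) tail. The core histones that are made only with new DNA have mRNAs without such a tail, and the RNA was copied here from an oligo dT primer. The description words found 0 probes of such a histone, so this group does not read S phase directly.

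Histone H2AV had log2 levels of 11.83, 11.53 and 11.65 in the short and 11.48, 11.10 and 11.002 in the natural photoperiod goats. The 3 short photoperiod goats lay above the 3 natural ones, the separation described for the cyclin G associated kinase. The ratios of 0.35, 0.43 and 0.65 had a mean of 0.48 ± 0.15 (SD, n = 3), which is a fold change of 1.39. Its adjusted p in limma, 0.172, was the lowest of the members.

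Histone H2A.Z had ratios of -0.17, 0.43 and 0.82, so the pair of replicate 1 went against the others. Its mean was 0.36 ± 0.50 (SD, n = 3) with an adjusted p of 0.400, and 0.13 without replicate 3. Histone H3.3 had 0.24 and 0.38 on the 2 arrays without an outlier flag, with a mean of 0.31 ± 0.10 (SD, n = 2) (limma, adjusted p = 0.318). The spot with the flag, on replicate 3, read 0.15. In this brightest of the members, median centring gave 1.09 in place of 0.31.

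Set against each other, the histone median exceeded that of the replication group on every array, by 0.34, 0.38 and 0.58 on the log2 scale, a mean of 0.43 ± 0.13 (SD, n = 3). It exceeded that of the mitosis group by 0.19, 0.40 and 0.80, a mean of 0.46 ± 0.31. Replication minus mitosis was -0.15, 0.02 and 0.22, with a mean of 0.03 ± 0.18, and so had no fixed sign. Histones were above both groups on all 3 arrays under median centring too, by 0.33 ± 0.09 and 0.48 ± 0.33. These values are descriptions of 3 to 10 probes, and that of the histones on replicate 3 rests on 2. The mitosis group was formed by words and includes the 3 kinesin probes of cargo transport and both CENP-B probes. Its median therefore does not read mitosis alone.

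**Figure D3:**
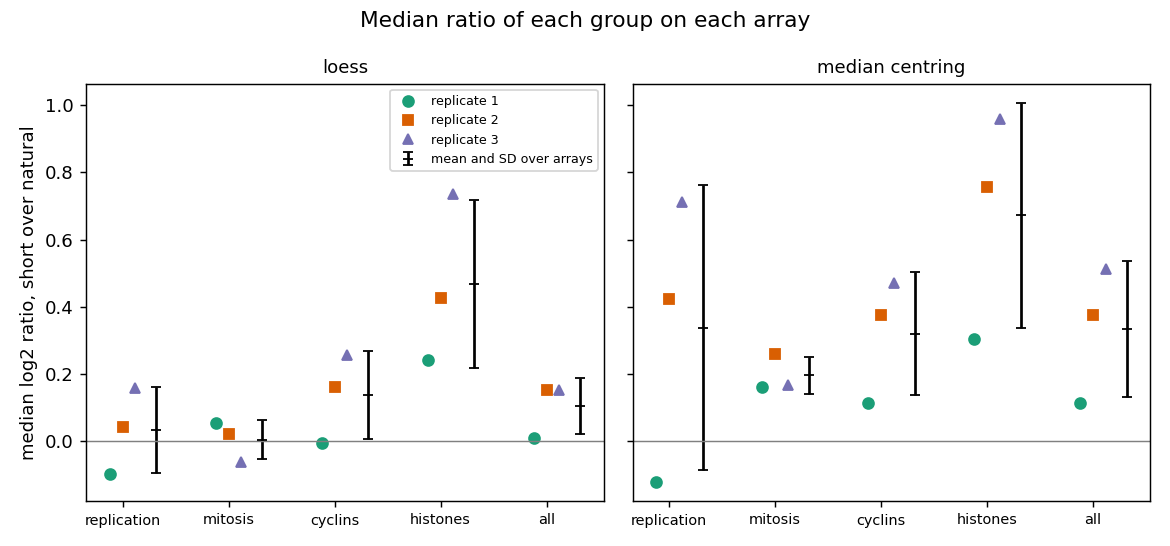
Median log2 ratio (vertical axis) of each group and of all 29 members on replicates 1, 2 and 3, with the mean and SD over the arrays, after loess (left) and after median centring (right). Histones are highest in both panels, and under median centring the median of all members moves from 0.11 to 0.33 in the mean of the arrays.

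The members were brighter than most probes, and their ratios moved with the normalization. With the tested probes split by brightness into 4 classes of equal size, 16 of the 29 members lay in the brightest one. After loess the median of that class was -0.02 for all its probes. After median centring it was 0.34 for all its probes and 0.46 for its 16 members. Centring, too, was tested with limma, and it called 3 members, the bright probe of the cyclin G associated kinase at 0.67, histone H3.3 at 1.09 and kinesin family member 5B at 0.51, at adjusted p-values of 0.0349, 0.0349 and 0.0420 in limma. It called 12.6% of all probes, against 0.00668% after loess, so the 3 of 29 stand beside that share. It also turned the means of PCNA positive, at 0.28 and 0.46, and that of zw10, at 0.10. AURKA, CENP-C and DNA polymerase delta subunit 2 stayed below 0 under it, and thymidylate synthetase stayed near its value, at 0.63.

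**Figure D4:**
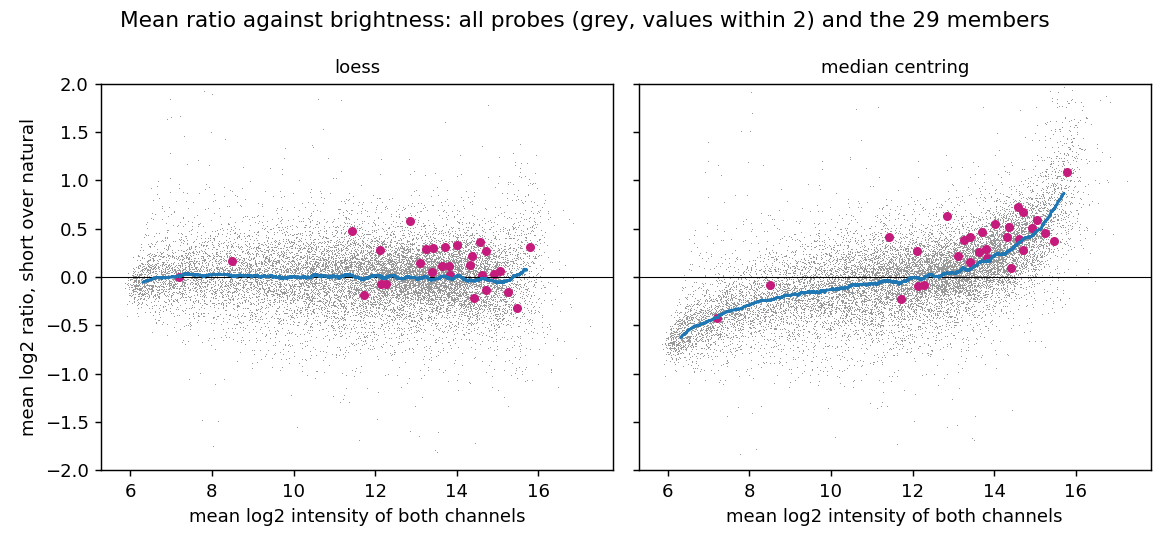
Mean log2 ratio over the arrays (vertical axis) against mean log2 intensity of both channels (horizontal axis) for all tested probes (grey) and the 29 members (large points), with a running median over neighbouring probes as a line, after loess (left) and median centring (right). The line is flat after loess and rises with brightness after median centring, and most members lie in the bright part where it rises.

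Other genes of proliferation were sought by name from a list of 52 symbols, of which 6 had a probe beyond the members. Of their 7 probes 0 were called by limma, and 2, those of PLK1 and HMGB2, had an unadjusted p under 0.05. Both were higher. At that p stood 18.5% of all tested probes, with 9.05% on the higher side, so a count among 7 probes says little. The mitotic kinase PLK1 (TC60125) had the largest mean. Its log2 ratios were 0.76, 0.23 and 1.59, averaging 0.86 ± 0.69 (SD, n = 3; limma, adjusted p = 0.224). The chromatin protein HMGB2 (TC72518) was also higher on each array, at 0.13, 0.34 and 0.68. The single-strand binding protein RPA1 (-0.02 ± 0.09) and both MYC probes (0.01 ± 0.11 and 0.12 ± 0.09) were within 0.13 of 0. DNMT1, which copies DNA methylation after replication, had 0.19 ± 0.26. PLK1 and HMGB2 were thus highest on the same array as thymidylate synthetase, cyclin A2, cyclin B1 and CDK1.

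Marker genes of cell types were read on the same arrays, and 0 of their probes were called. The list of hair matrix and cortex markers, among them HOXC13, SHH and the hair keratins KRT34, KRT35 and KRT85, had probes for 6 of its 13 symbols. All of its 10 probes were above background, and 8 were higher on all 3 arrays, the exceptions being both probes of GATA3. Of all probes on the arrays, 21.5% were higher on all 3. The median log2 ratio of the list was 0.39, 0.26 and 1.52 on replicates 1, 2 and 3, highest on replicate 3 like cyclin A2 and cyclin B1. The summed intensity of the list was 316100 to 334000 in the short and 165100 to 250000 in the natural photoperiod goats. The leukocyte list, with probes for 7 of 12 symbols, was lower on all arrays for 12 of 13 probes, at 122800 to 142600 against 169100 to 215600, with CD4 near background. Of all probes, 22.1% were lower on all 3 arrays. Several of the 13 probes read the same gene and are not separate evidence. The same holds for the hair matrix and cortex list, where HOXC13, SHH, KRT35 and GATA3 were each read by 2 probes. Basal epidermis and outer root sheath, with KRT14 and TP63, had 3 of 3 measured probes higher on all arrays, at 71200 to 90000 against 38100 to 66500. The median log2 ratio of this list was 1.33, 1.12 and 0.26 on replicates 1, 2 and 3, and thus lowest on replicate 3. The median of replicate 1 also takes in KRT5, which had a value on that array only, at 1.34. Fibroblast collagens and decorin, which mark the dermis of skin, summed to 169500 to 190200 against 152100 to 224400. The median of the 9 fibroblast probes was -0.41, with the 4 probes of COL3A1 at -0.60 to -0.72 and both of decorin (DCN) above 0, at 0.03 and 0.13. The endothelial marker VWF was summed at 9300 to 11600 against 11200 to 15400, the adipose markers PLIN1 and LEP at 1200 to 1400 against 1300 to 1900, and haemoglobin HBB of blood at 4100 to 7500 against 2000 to 19900. The part of these cell types in the values of the cell cycle genes was not tested.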

How the data were processed

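Total RNA was labelled by the authors with Cy5 (short photoperiod) or Cy3 (natural photoperiod) from an oligo dT primer and hybridised to 3 arrays. Per the file headers, Feature Extraction 10.7.3.1 gave spot and background intensities, 0 or 1 flags and other spot columns, and a log10 ratio of processed signals. The deposited value table holds log2 ratios, which for 99.96% to 100% of probes with 1 spot equalled the ratio of processed signals within 0.001.

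In R 4.3.3 with limma 3.58.1, normexp (offset 50) was run on all spots, controls were left out, and loess was run within arrays. Flagged spots were dropped, spots of a probe averaged, and 14977 probes with at least 2 arrays tested against a ratio of 0 with lmFit and eBayes. Each array pairs goats of the same parent, as the paper states, so the test is paired. Levels are from the same loess after Aquantile normalization. Between 13872 and 14602 of 15208 spots per channel were well above background and 0 were saturated. The number of arrays limits the precision. The test was also run on simulated ratios with normal errors, variances drawn from limma's own model and no dye bias. Such ratios cannot check the fixed dye orientation or the normalization.

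The members and lists were chosen with earlier results of these data known. Probes are named as on the array. Members were named if they were on a list of textbook cycle genes, were among the 3 largest changes each way of a group with 1 direction on all arrays, or passed 2-fold or the adjusted p. The rest are named only as members of their family, after their values were seen. Array descriptions were matched to the symbols of the lists by phrases, without use of their values; the lists of differentiated epidermis and skeletal muscle had 0 probes, and adipose, endothelium and blood had 4, 1 and 2, none called. The words in the rule with 0 probes were minichromosome, DNA replication, topoisomerase, ribonucleoside-diphosphate reductase and cell division. Alternatives changed the background correction, normalization, source of ratios, dim probe filter, flags, arrays, variance model, pairing and probe per gene. Figures were drawn with matplotlib 3.10.9. A gene of the proliferation list is not reported here by name.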

Additional observations from a re-analysis of the deposited data

How the results depend on the processing

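No member was called under any alternative except median centring, which called 3, placed 1 past 2-fold and gave group medians of 0.38 for replication, 0.20 for mitosis, 0.39 for cyclins and 0.73 for histones. Over all probes the calls went from 1 to 1885 there, to 14 with the value table, and to 161 in separate channels with the replicate block (pairing by array), which called 0 members at a lowest adjusted p of 0.0877. Without the block 0 probes were called, with 1081 at an unadjusted p under 0.05. With the brightest probe of each record the replication median was 0.067. Leaving out each array in turn gave medians of -0.25 to 0.084 for replication, -0.080 to 0.058 for mitosis, 0.05 to 0.20 for cyclins and 0.31 to 0.58 for histones, with 0 members called. Of the 29 probes, 17 kept their sign under every alternative and 12 did not, and the cause was not tested. Median centring turned the sign for kinesin-associated protein 3 (-0.081), zw10 (0.10), PCNA (0.46 and 0.28) and the aurora kinase A-interacting protein (0.37). The dim probe of the cyclin G associated kinase gave 0.044 without background correction, 0.077 with the Feature Extraction ratio and 0.077 with the value table. Under the last 2, the CDK2-associated protein 2 gave -0.016 and -0.016, and a CENP-B probe -0.030 and -0.030. Over the arrays left out, the range was -0.26 to 0.22 for AURKA, -0.060 to 0.70 for CDK1, -0.044 to 0.13 for CDK2, -0.0035 to 0.030 for the CDK2-associated protein 2, and -0.036 to 0.067 for the dim probe. It was -0.15 to 0.25 and -0.16 to 0.21 for CENP-B, and -0.31 to 0.078 and -0.26 to 0.084 for PCNA. The arrays were 3, without a dye swap, and 1 of the 29 probes was not well above background on every array. The unadjusted intervals given do not mark the smallest difference that could be called. Those of thymidylate synthetase, 0.13 to 1.04, and histone H2AV, 0.19 to 0.76, exclude 0, and neither probe was called after adjustment. The absence of calls therefore does not show that the members were unchanged.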
